A study of Mus musculus with 96 samples.

Results

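The semaphorin, plexin, ephrin, Eph, Slit and Robo genes of the mouse were followed through nuclei of the adult visual cortex. Members were the protein-coding autosomal genes with these family names whose level averaged at least 1 CPM (counts scaled to the size of the library) over the 96 libraries. Of 58 protein-coding genes with such names, 49 were members, among 55335 genes in the count table and 18392 with that mean level. Plxna3, Plxnb3 and Efnb1 lie on the X chromosome and were left out, and Efna4, Epha2, Ephb4, Robo4, Sema3b and Sema3g lay under the minimum. The members were 5 secreted class 3 semaphorins, 13 semaphorins of classes 4 to 7, 3 A plexins, 4 plexins of the B to D classes, 4 ephrin-A and 2 ephrin-B ligands, 8 EphA and 4 EphB receptors, 3 Slit ligands and 3 Robo receptors. Every member passed the filter on low counts in each fit.

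Semaphorins are secreted or membrane-bound cues that act largely through plexin receptors, and most class 3 members need a neuropilin as co-receptor. Ephrins are held at the cell surface, bind Eph receptor tyrosine kinases on a neighbouring cell and can signal in both directions, while secreted Slit proteins bind Robo receptors and are best known for repelling axons at the midline. In the adult cortex these families are known for roles at synapses and in the placement of connections, and VIP neurons are inhibitory interneurons that contact mainly other interneurons.

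All animals carried VIP flp/wt, which gives Flp recombinase to VIP neurons, and a homozygous floxed allele named Igf1-E1, Igf1-E23 or Igf1-E123 (here lines E1, E23 and E123). At 55 to 60 days of age the visual cortex was injected with AAV-Syn1-fDIO-mScarlet-KASH-2a-Cre or the same virus with dCre in place of Cre, which served as control. The virus is switched on by Flp and uses the Syn1 promoter, so Cre was directed to VIP neurons and not to the other cells of the total fraction. Dark housing began 3 days after injection and lasted 10 to 12 days, and tissue was taken in the dark or after 1 h of light. Pools of 50 to 100 nuclei were sorted as VIP nuclei or as total nuclei, with 48 libraries of each, which makes 24 groups of 3 to 5 libraries of both sexes. The gene counts do not measure whether the floxed segments were removed. The titles name the libraries biological replicates, and p-values here measure the spread between them.

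Total counts per library ran from 1559883 to 9122515, with medians of 4539692.5 in VIP and 4439248 in total nuclei. As a check of the labels, Igf1 in VIP nuclei of line E1 averaged 787 ± 151 CPM over the 8 dCre libraries and 448 ± 96.7 over the 9 Cre libraries (SD; edgeR quasi-likelihood adjusted p = 0.0300). In line E123 it averaged 595 ± 198 over 8 dCre and 313 ± 49.7 over 7 Cre libraries (edgeR adjusted p = 0.0418), and in line E23 700.3 ± 136 and 577 ± 180 (n = 8 each; edgeR adjusted p = 0.876). All 10 VIP markers were higher in VIP than in total nuclei and all 11 excitatory, 10 oligodendrocyte-lineage and 8 microglial markers lower. Other lists were less clear. Of 7 astrocyte markers 2 were lower and 5 did not pass. Of 8 endothelial and mural markers 2 were higher and 0 lower, with 7 positive and a median log2 difference of 1.43. In the parvalbumin and somatostatin lists 1 of 4 was higher and 2 lower, and in the Lamp5 or Sncg list 2 were higher and 2 lower. The summed level of the VIP markers was 1802 to 20385 CPM in VIP libraries and 57.3 to 450 in total libraries, and that of the excitatory markers 51.2 to 1057 and 890 to 1500. A length index was taken in each library as the mean log2 CPM of the 3921 longest protein-coding genes minus that of the 3921 shortest (members left out). It stood apart in the E1 dCre dark VIP libraries (4.35 and 4.31 in replicates 1 and 2, against 2.81 in replicate 3) and in replicates 1 and 2 of E123 dCre dark (4.21 and 4.22), with a median of 2.60 over all VIP libraries. Results that rest on these libraries are given with and without them.

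The first question was which guidance genes VIP neurons use, set against the mixed nuclei around them. By how little the 2 sets of libraries overlapped, the most distinct higher members in VIP nuclei were a secreted cue, Sema3c, and a receptor, Robo1, while all 3 Slit ligands were lower there than in total nuclei. To place these genes on the genome, the 250 bases before a RefSeq start site are shown for Robo1, the most abundant receptor in VIP nuclei per length, and for Sema3a, a cue that was lower there. The Robo1 segment, chr16:72662899-72663148 on the plus strand of GRCm38.p6, lies inside the gene (chromosome 16, 72308306 to 73046095) and overlaps no annotated exon. The Sema3a segment, chr5:13396534-13396783 on the plus strand, lies likewise inside its gene (chromosome 5, 13125414 to 13602565), outside annotated exons. Letters are in lower case because neither segment held any of the motifs searched.
Robo1: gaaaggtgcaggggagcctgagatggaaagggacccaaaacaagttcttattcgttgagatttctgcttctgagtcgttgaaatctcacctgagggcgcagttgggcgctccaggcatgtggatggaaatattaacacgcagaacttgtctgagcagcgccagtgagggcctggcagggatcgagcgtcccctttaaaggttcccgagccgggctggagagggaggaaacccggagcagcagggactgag
Sema3a: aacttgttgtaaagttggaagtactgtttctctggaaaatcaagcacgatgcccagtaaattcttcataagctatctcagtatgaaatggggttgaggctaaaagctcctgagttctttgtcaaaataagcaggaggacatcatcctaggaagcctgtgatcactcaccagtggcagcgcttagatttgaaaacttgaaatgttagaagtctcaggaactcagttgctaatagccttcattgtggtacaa
The Robo1 segment was 56.0% G and C and the Sema3a segment 40.8%, beside a median of 64.4% over the promoters of the 43 members that matched the RefSeq table. Over all 59 member promoters, both strands were searched for the CREB site TGACGTCA, the AP-1 site TGANTCA and the homeodomain core TAATTA. The CREB site was in 0 of them and in 1.55% of 32851 mouse promoters of the same length. The AP-1 site was in 3 (Sema4c, Sema4d and Sema6b) and in 6.75% of all, and the homeodomain core in 3 (Efna1, Epha5 and Robo3) and in 4.84% of all. A match describes letters in this window only.

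Between VIP and total nuclei, 39 of the 49 members passed an adjusted p under 0.05 (edgeR quasi-likelihood test, Benjamini-Hochberg adjustment over 22926 genes), 15 of them higher in VIP nuclei and 24 lower. Over all genes tested 35.5% passed, 14.8% higher and 20.7% lower. Among other protein-coding genes that span 100 kb or more the share was 65.2%, and among shorter ones 33.5%, while it was 80.0% of the 25 members of at least 100 kb and 79.2% of the 24 shorter members. The members' median log2 difference was -0.33 and that of all genes -0.11. Scaling by total counts alone moved the median of all genes to -0.24 and the members' split to 13 higher and 26 lower, with the higher share of all calls at 28.7% in place of 41.7%. Of the 39 calls, 36 held in each of the 8 alternatives tried and with any 1 replicate left out. In these bulk pools, fewer cells of a type and less RNA per cell cannot be told apart.

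**Figure D1:**
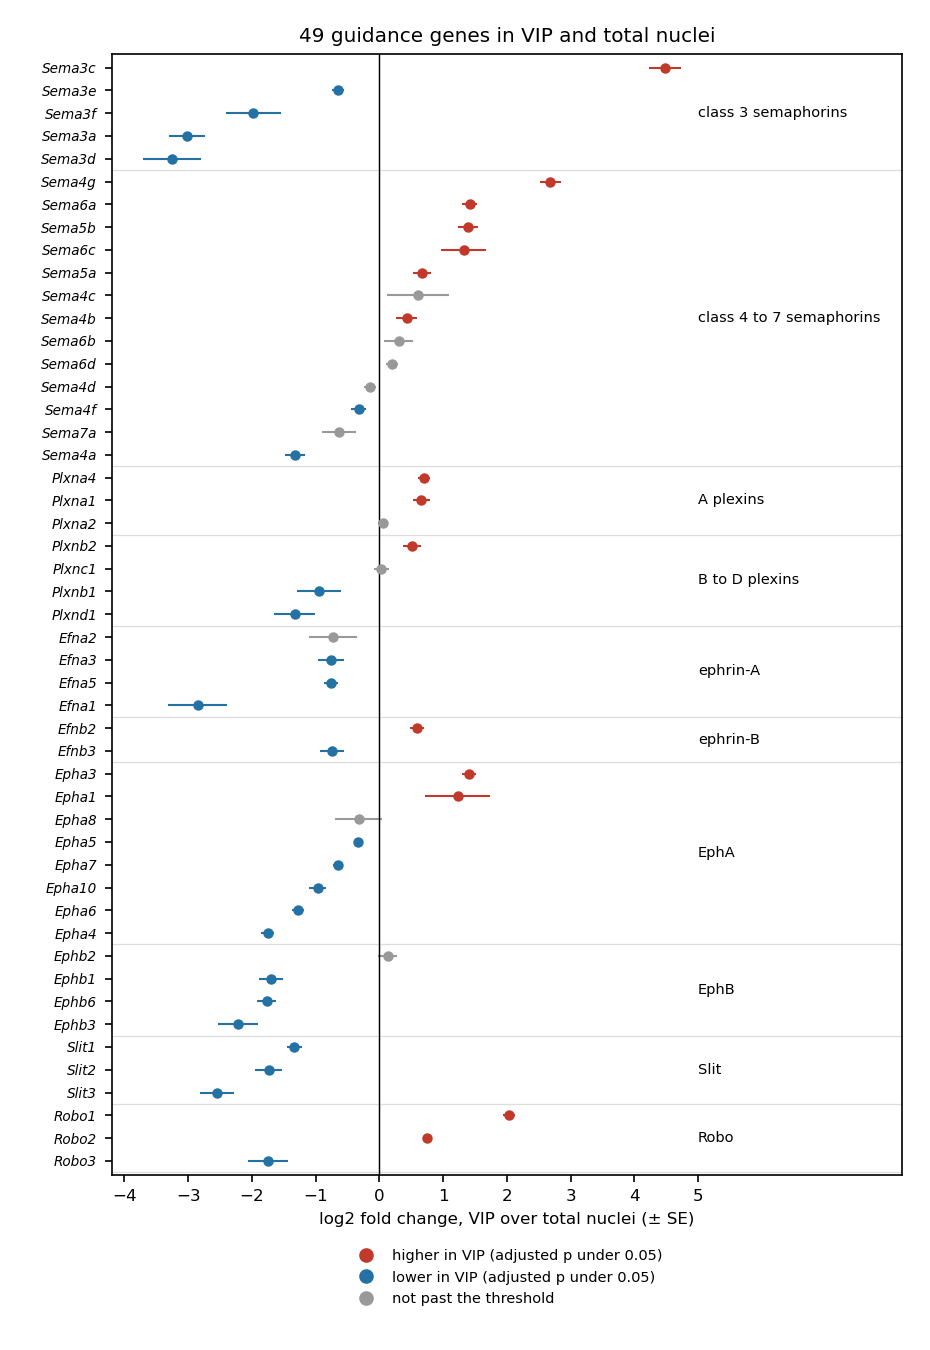
Log2 difference between VIP and total nuclei (x axis) for the 49 members, grouped by subfamily; points are edgeR estimates and bars 1 standard error, red for members higher and blue for members lower in VIP nuclei at an adjusted p under 0.05, grey for the rest. Sema3c lies farthest to the right at 4.48, and all 3 Slit genes lie to the left of 0.

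The class 3 semaphorins, the secreted cues, split: 1 rose and 4 fell in VIP nuclei. Sema3c, a cue for migrating and growing neurons, ranged from 53.0 to 475 CPM with a median of 220 in VIP nuclei, and from 0 to 45.5 with a median of 9.75 in total nuclei. Each of the 48 VIP libraries lay above the highest total library, and the log2 difference was 4.48 ± 0.25 (SE; edgeR adjusted p = 2.98e-26). It was the one member whose 2 sets of libraries did not overlap, and the share of all genes without overlap is not given here. Its group means in VIP nuclei ran from 116 CPM in E123 Cre light to 289 in E1 Cre dark.

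Sema3a, the classic repellent cue that acts through Nrp1 and A plexins, went the other way. It ranged from 0 to 40.2 CPM with a median of 4.57 in VIP nuclei and from 4.21 to 94.4 with a median of 36.6 in total nuclei, a log2 difference of -3.02 ± 0.28 (edgeR adjusted p = 1.98e-15). The libraries overlapped, but 22 of 48 VIP libraries lay below the lowest total library. Sema3e, the class 3 cue that can bind Plxnd1 without a neuropilin, was lower by less: a median of 68.2 CPM (19.7 to 146) against 107 (54.3 to 186), and a log2 difference of -0.65 ± 0.09 (edgeR adjusted p = 9.44e-09). Sema3d and Sema3f had VIP groups with no count, so their levels are given in place of a fitted fold. Sema3d had a mean of 1.43 ± 2.26 CPM in VIP and 9.16 ± 9.59 in total nuclei, and Sema3f 1.22 ± 1.60 and 3.27 ± 2.77 (SD, n = 48 each; edgeR adjusted p = 2.94e-09 and 7.30e-05).

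Among the 13 semaphorins of classes 4 to 7, which are mostly bound to the membrane, 6 rose in VIP nuclei, 2 fell and 5 did not pass. Sema4g ranged from 9.75 to 65.4 CPM with a median of 30.6 in VIP nuclei and from 0.328 to 15.5 with a median of 5.08 in total nuclei. Of the 48 VIP libraries, 44 lay above the highest total library, and the log2 difference was 2.68 ± 0.16 (edgeR adjusted p = 3.01e-26). Sema6a, a transmembrane semaphorin that binds Plxna2 and Plxna4, ranged from 51.6 to 207 CPM (median 121) against 7.10 to 93.2 (median 41.2), with 38 VIP libraries above the highest total library and a log2 difference of 1.41 ± 0.12 (edgeR adjusted p = 7.40e-19).

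Both class 5 members, which carry thrombospondin repeats, were higher in VIP nuclei. Sema5b had a median of 59.5 CPM (13.1 to 139) against 19.0 (1.02 to 73.4), and a log2 difference of 1.39 ± 0.15. Sema5a had a median of 108 CPM (26.7 to 271) against 60.4 (12.6 to 169), and a log2 difference of 0.67 ± 0.14 (edgeR adjusted p = 1.16e-12 and 8.02e-05). Of the lower members, Sema4a fell from a median of 29.4 CPM (11.7 to 64.7) in total nuclei to 12.4 (0 to 32.4) in VIP nuclei, a log2 difference of -1.32 ± 0.16 (edgeR adjusted p = 2.52e-11). The calls of Sema4b (0.43, higher) and Sema4f (-0.32, lower) were weak: in each case at least 1 alternative gave an adjusted p above 0.05, up to 0.217 and 0.293. Sema7a, the member anchored by a lipid, just missed at -0.63 ± 0.26 (edgeR adjusted p = 0.0502), and Sema6d, high in both fractions at medians of 317 and 259 CPM, had a log2 difference of 0.20 ± 0.10 (edgeR adjusted p = 0.103).

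The plexins are the receptors for these cues, and 3 of 7 rose while 2 fell. Plxna4, a receptor for Sema3a together with Nrp1, ranged from 262 to 1348 CPM (median 600) in VIP nuclei and from 169 to 897 (median 355) in total nuclei, a log2 difference of 0.70 ± 0.09 (edgeR adjusted p = 8.99e-11). The libraries overlapped, with 46 of 48 VIP libraries above the median of total nuclei. Plxna1 was also higher (0.66 ± 0.13, edgeR adjusted p = 1.11e-05), but its gene overlaps the antisense gene Gm26811, whose level was 65.0% of its own, and reads of overlapping genes cannot be told apart: the Nextera XT kit that the labels name keeps no strand.

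Plxna2 stood at medians of 200.2 and 199.7 CPM in VIP and total nuclei, with a log2 difference of 0.06 ± 0.08 (edgeR adjusted p = 0.702). Among the B to D plexins, Plxnb2 rose (0.51 ± 0.14, edgeR adjusted p = 0.00174), whereas Plxnb1 (-0.94 ± 0.34) and Plxnd1, the Sema3e receptor (-1.33 ± 0.32), fell, at medians of 2.56 and 3.60 CPM in VIP nuclei (edgeR adjusted p = 0.0221 and 0.000313). Plxnc1, a receptor for Sema7a, did not pass, at medians of 42.6 and 41.0 CPM (edgeR adjusted p = 1.00).

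Of the ephrin ligands, 4 were lower in VIP nuclei, 1 was higher and Efna2 did not pass. Efna5, an ephrin-A that guides topographic maps, ranged from 69.6 to 728 CPM (median 269) in VIP nuclei and from 281 to 785 (median 496) in total nuclei, a log2 difference of -0.76 ± 0.11 (edgeR adjusted p = 1.00e-08). In 26 of 48 VIP libraries it lay below the lowest total library. Efna3 (-0.75 ± 0.20) and Efnb3 (-0.74 ± 0.19) were lower as well, at medians of 6.83 and 6.72 CPM in VIP nuclei. Efna1, a ligand also known from blood vessels, had no count in 28 of 48 VIP libraries and a mean of 1.61 ± 3.31 CPM there against 7.08 ± 5.10 in total nuclei (SD, n = 48 each). Efnb2, a ligand of EphB receptors and Epha4, was the higher one, at a median of 36.9 CPM (9.90 to 95.1) against 25.9 (10.9 to 53.2) and a log2 difference of 0.59 ± 0.11 (edgeR adjusted p = 2.33e-06). The overlapping gene Gm45073 reached 23.4% of the Efnb2 level, and Gm15998, antisense to Efna3, 32.5% of the Efna3 level.

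The Eph receptors were mostly lower: 5 of 8 EphA and 3 of 4 EphB members fell, and 2 EphA members rose. Epha4, which binds ephrins of both classes, ranged from 4.42 to 229 CPM (median 87.1) in VIP nuclei and from 157 to 375 (median 277) in total nuclei. In 43 of 48 VIP libraries it lay below the lowest total library, and the log2 difference was -1.75 ± 0.11 (edgeR adjusted p = 1.93e-26). Epha6, the most abundant member per exon length in total nuclei, ranged from 100 to 707 CPM (median 274) against 230 to 1668 (median 650), a log2 difference of -1.28 ± 0.09 (edgeR adjusted p = 2.69e-21). Epha3, another receptor for ephrin-A ligands, did the reverse at 76.0 to 497 CPM (median 244) against 22.9 to 158 (median 88.3), a log2 difference of 1.40 ± 0.11 (edgeR adjusted p = 2.15e-20), with 40 VIP libraries above the highest total library.

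Epha7 (-0.65 ± 0.08, edgeR adjusted p = 1.20e-11) and Epha10, which lacks kinase activity (-0.97 ± 0.14, edgeR adjusted p = 3.52e-09), were lower too. The other higher call, Epha1, rested on medians of 1.19 and 0.307 CPM. It was lost in 6 of 8 alternatives, and Zyx on the opposite strand, which overlaps it, stood at 695% of its level. Of the EphB receptors, Ephb6, also without kinase activity, fell by 1.77 ± 0.15 and Ephb1 by 1.70 ± 0.19 on the log2 scale (edgeR adjusted p = 9.14e-18 and 3.16e-12), from medians of 63.5 and 82.2 CPM in total nuclei to 19.3 and 24.3. Ephb3 had a mean of 3.75 ± 3.74 CPM in VIP and 8.65 ± 5.20 in total nuclei (edgeR adjusted p = 2.64e-09), and Ephb2 did not pass (0.13 ± 0.15, edgeR adjusted p = 0.586).

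All 3 Slit ligands fell in VIP nuclei, while 2 of the 3 Robo receptors rose. Slit3 ranged from 0 to 979 CPM with a median of 94.1 in VIP nuclei and from 278 to 1333 with a median of 580 in total nuclei, a log2 difference of -2.54 ± 0.27 (edgeR adjusted p = 4.80e-13). In 41 of 48 VIP libraries it lay below the lowest total library. Its spread within VIP nuclei was wide, with group means from 16.7 CPM in E23 Cre dark to 590 in E123 dCre dark. Slit2 had a median of 37.7 CPM (0 to 140) against 106 (47.5 to 262) and a log2 difference of -1.74 ± 0.22 (edgeR adjusted p = 2.08e-10). Slit1 had a median of 24.3 CPM (8.53 to 112) against 69.5 (30.7 to 138) and a log2 difference of -1.33 ± 0.11 (edgeR adjusted p = 2.60e-18).

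Robo1, a Slit receptor with several immunoglobulin domains, ranged from 737 to 3702 CPM with a median of 1306 in VIP nuclei and from 166 to 763 with a median of 320 in total nuclei. All but 1 of the 48 VIP libraries lay above the highest total library, and the log2 difference was 2.03 ± 0.10 (edgeR adjusted p = 1.46e-33). Robo2, its close relative, ranged from 422 to 1325 CPM (median 676) against 229 to 817 (median 406), a log2 difference of 0.75 ± 0.07 (edgeR adjusted p = 1.81e-16), with every VIP library above the median of total nuclei. Robo3, the divergent member known from midline crossing, was lower at medians of 4.57 and 15.5 CPM (-1.74 ± 0.31, edgeR adjusted p = 2.03e-06).

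**Figure D2:**
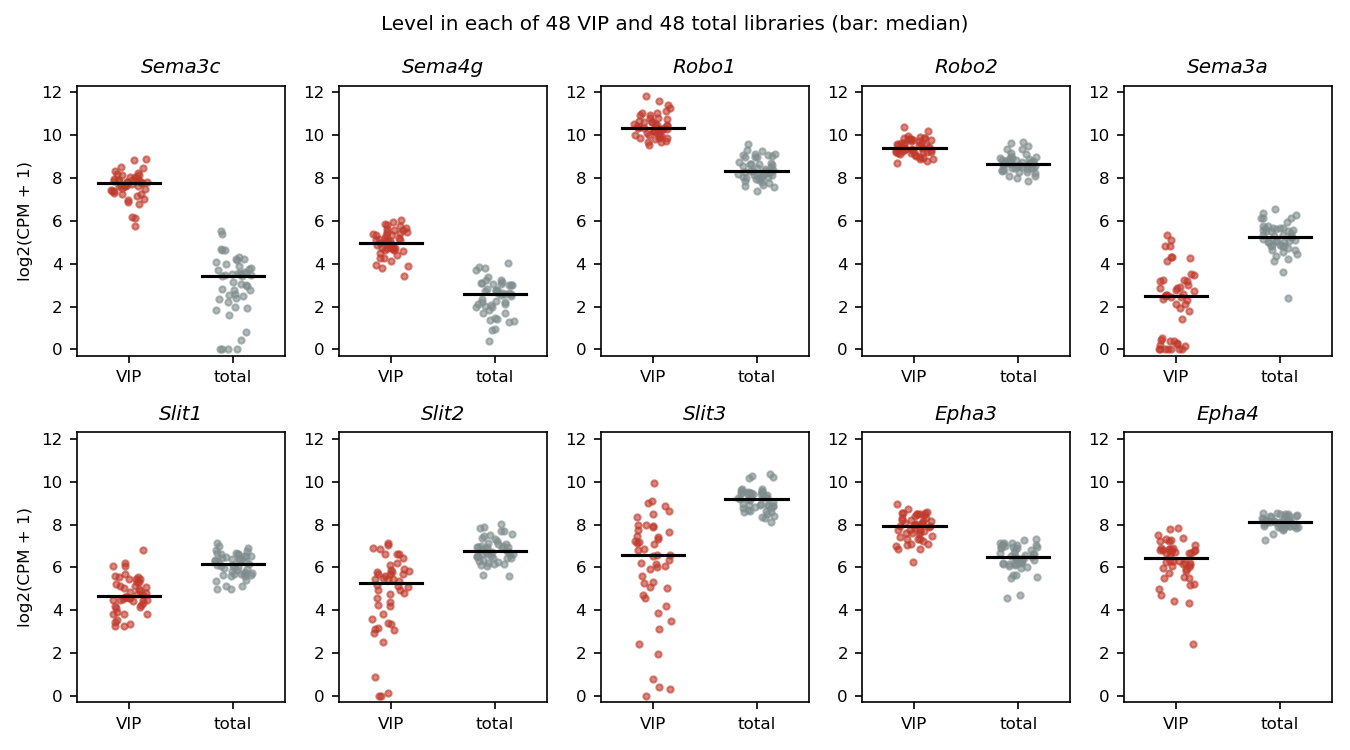
Level of 10 members, as log2 of CPM plus 1 (y axis), in the 48 VIP and 48 total libraries; each point is 1 library and the bar the median. Sema3c libraries do not overlap (53.0 CPM and above against 45.5 and below), and 41 of 48 VIP libraries lie below every total library for Slit3.

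These directions were the same across the study's conditions for many members. In all 12 combinations of line, virus and light, the mean of VIP nuclei was above that of total nuclei for Sema3c, Sema4g, Sema5b, Sema6a, Robo1, Robo2, Plxna1, Plxna4, Epha3 and Efnb2. It was below in all 12 for Sema3a, Sema3d, Sema4a, Slit1, Slit2, Slit3, Epha4, Epha5, Epha6, Epha7, Epha10, Ephb1, Ephb6, Efna1, Efna5 and Efnb3, and for Sema7a, which had missed the threshold. The share of all genes with the same direction in all 12 is not given here, and 35.5% of all genes were called between the fractions. The pattern is therefore not read as particular to the members. Summed over the 49 members, the share of all counts was 0.569% ± 0.0882 in VIP and 0.575% ± 0.0917 in total nuclei (SD, n = 48 each), a difference smaller than the spread between libraries. Some markers of other cells moved with these differences. The summed oligodendrocyte-lineage level was 71.1 to 2084 CPM (median 212) in VIP and 227 to 4078 (median 1358) in total libraries. The part of other cells in the higher or lower members was not tested.

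Levels of different genes are compared per kb of exon. In VIP nuclei the order of mean levels was Robo1 at 89.0 CPM per kb, Efna5 at 73.7, Epha6 at 57.8, Plxna4 at 45.7 and Robo2 at 42.4. In total nuclei it was Epha6 at 133.6, Efna5 at 120.9, Slit3 at 100.6, Epha4 at 34.9 and Plxna4 at 28.1. Exon length is a rough divisor for nuclear RNA, in which introns are common. Per kb of the whole gene the order was another: in VIP nuclei Sema4g at 2.32 CPM per kb, Robo1 at 1.99, Ephb6 at 1.47, Plxna4 at 1.45 and Sema3c at 1.40, and in total nuclei Ephb6 at 4.46, Efnb3 at 2.18, Epha4 at 1.90, Efna5 at 1.76 and Epha7 at 1.60. Epha6, the highest per exon length in total nuclei, ranked 17 there, and the treatment of intronic reads is not given in the sources used here.

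Other genes of the guidance pathways also differed between the fractions. Of 24 co-receptors and other cues, 6 were higher in VIP nuclei and 9 lower, beside 14.8% higher and 20.7% lower over all genes. Unc5b, a netrin receptor, stood at 44.3 ± 38.5 CPM against 3.95 ± 3.62, and Rgmb, a co-receptor of bone morphogenetic proteins that binds neogenin, at 115 ± 45.2 against 33.9 ± 14.2 (SD, n = 48 each; edgeR adjusted p = 1.01e-23 and 3.70e-24). Unc5d, a close relative of Unc5b, stood at 168 ± 187 against 645 ± 251 CPM, and Ntng1, which binds a synaptic adhesion protein, at 40.4 ± 36.4 against 145 ± 79.4 (edgeR adjusted p = 2.19e-20 and 2.79e-10). Nrp1, the co-receptor for Sema3a, was lower at 83.9 ± 39.8 against 157 ± 39.7 CPM (log2 difference -1.02 ± 0.10, edgeR adjusted p = 7.87e-15), and Nrp2 at 17.7 ± 12.8 against 22.9 ± 10.0 (-0.50 ± 0.19, edgeR adjusted p = 0.0275), a call lost without the E1 dCre dark replicates 1 and 2. The other named members of this list were Flrt2, Rgma, Flrt1 and Cdon among the higher and Ntng2, Cntn2 and Boc among the lower.

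Of 52 genes that relay these signals to the cytoskeleton, 20 were higher and 15 lower, where the share called was 35.5% of all genes and 65.2% of the long protein-coding ones. The 6 higher ones with the smallest p were Grb10, Vav2, Enah, Dpysl5, Tiam1 and Dpysl4, and the 6 lower ones Kalrn, Tiam2, Pak1, Chn1, Chn2 and Ngef. Vav2, an exchange factor that acts below Eph receptors, stood at 82.0 ± 38.9 against 7.46 ± 5.78 CPM, and Kalrn, an exchange factor at dendritic spines, at 764 ± 504 against 1491 ± 461 (edgeR adjusted p = 3.97e-31 and 1.56e-19).

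The second question was whether 1 h of light after darkness moved these genes. The check genes responded in dCre VIP nuclei: Fos, Npas4, Egr1, Nr4a1 and Fosl2 all rose. Among the members 2 of 49 passed (13 light and 11 dark libraries, averaged over the 3 lines), 1 higher and 1 lower, beside 6.27% of 20585 genes tested (edgeR quasi-likelihood, Benjamini-Hochberg), 3.97% higher and 2.3% lower. Under total-count scaling the higher share of all calls was 80.4% in place of 63.3%, with the median of all genes at 0.13 in place of 0.01.

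The member that rose was Ephb3, an EphB receptor known at excitatory synapses. It ranged from 0.793 to 13.9 CPM (median 5.14) in light and from 0 to 7.41 (median 0.807) in dark libraries, which overlapped (edgeR adjusted p = 0.0220). The 3 E1 dark libraries held no count, and 122 counts stood in the 5 E1 light libraries, at least 34.8-fold more for the summed size of the libraries than the limit of 3 counts over the E1 dark group allows. In line E123 the means were 5.71 ± 4.01 in light and 4.80 ± 3.07 in dark (SD, n = 4 each), and in line E23 7.08 ± 4.58 and 2.08 ± 2.58. Without the E1 dark replicates 1 and 2 the call was lost (edgeR adjusted p = 0.293), as it was with the length index as a covariate (edgeR adjusted p = 0.251). With either of those libraries left out alone it missed as well, at up to 0.0613. The E1 response minus the E23 or E123 response did not pass (edgeR adjusted p = 0.296 and 0.241).

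The member that fell was Plxna4. It ranged from 262 to 1348 CPM (median 604) in light and from 384 to 1325 (median 908) in dark libraries, which overlapped, with a log2 difference of -0.54 ± 0.17 (edgeR adjusted p = 0.0486). It too was lost without the E1 dark replicates 1 and 2 (-0.51, edgeR adjusted p = 0.290), and with the length index as a covariate the difference was -0.05 (edgeR adjusted p = 1.00). In 16 of 24 fits with 1 library left out the adjusted p was above 0.05. In the E1 dark group Plxna4 stood at 1076 ± 150 CPM (SD, n = 3), the highest group mean in VIP nuclei. Cell type markers and the length index moved in the same comparison. The summed VIP markers had a median of 8869 CPM (3143 to 16505) in light and 4016 (1802 to 12548) in dark libraries, and 3 of 10 rose (Vip, Crh and Igf1). The summed astrocyte markers had a median of 443 CPM (242 to 1508) against 324 (241 to 383), and 3 of 7 rose, among 6 with a positive difference. The oligodendrocyte-lineage markers had a median of 228 (119 to 2010) against 110 (71.1 to 357), with 1 of 10 called and all 10 positive, and 1 of 8 microglial markers was called with all 8 positive. Among neuronal markers, Dlx1, Dlx6os1, Gad1 and Gad2 of the 7 genes in the GABAergic list (Dlx6os1 in 1 of its 2 gene identifiers), 2 of 4 of the somatostatin list and 1 of 11 of the excitatory list rose, and of the 4 in the parvalbumin list 1 rose and 1 fell. The length index had medians of 2.59 and 3.00. The part of the markers in these results was not tested.

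The other members followed by name did not pass in dCre VIP nuclei with the 3 lines averaged. Slit1 stood at a median of 26.8 CPM (10.1 to 46.8) in light and 31.5 (21.2 to 112) in dark (-0.62 ± 0.26, edgeR adjusted p = 0.129). Robo1 stood at 1368 (832 to 2254) and 1566 (894 to 3702; -0.41 ± 0.17, edgeR adjusted p = 0.133), and Robo2 at 692 (441 to 951) and 839 (596 to 1325; -0.29 ± 0.14, edgeR adjusted p = 0.223). All 3 overlapped between light and dark. The differences were 0.46 ± 0.27 for Epha4, -0.72 ± 0.69 for Slit3, 0.50 ± 0.77 for Sema3a, -0.35 ± 0.57 for Slit2 and 0.01 ± 0.27 for Efna5, with edgeR adjusted p of 0.313 to 1.00.

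In VIP nuclei given Cre, 0 of 49 members passed between 12 light and 12 dark libraries (edgeR; 5 at an unadjusted p under 0.05), as with DESeq2 (0, and 6 unadjusted), beside 0.35% of all genes. Epha7, an ephrin-A receptor, came nearest at a median of 137 CPM (75.7 to 187) in light and 180 (115 to 248) in dark (-0.49 ± 0.15, edgeR adjusted p = 0.142). Plxna4 stood at medians of 502 and 478 (0.06 ± 0.17, edgeR adjusted p = 1.00). The Slit differences were 0.12 ± 0.26 for Slit1, 0.60 ± 0.58 for Slit2 and 0.76 ± 0.71 for Slit3, and the Robo differences -0.32 ± 0.17 for Robo1 and -0.06 ± 0.14 for Robo2. Epha4 differed by 0.40 ± 0.27, Efna5 by 0.43 ± 0.27 and Sema3a by 1.21 ± 0.80, and for these 8 members the ranges overlapped and edgeR adjusted p was 0.585 to 0.996. For Ephb3, 1 of 12 light and 6 of 12 dark libraries held no count, with medians of 3.77 and 0.102 CPM (edgeR adjusted p = 0.216). The difference between the light responses with Cre and with dCre was itself tested and 0 members passed (edgeR; 4 at an unadjusted p under 0.05; DESeq2 0 and 4), beside 0.00486% of all genes. For Plxna4 that difference was 0.60 ± 0.24 (edgeR adjusted p = 0.450).

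In total nuclei of the dCre animals, 3 of 49 members passed, 1 higher and 2 lower, beside 5.69% of 21213 genes (edgeR; 3.42% higher, 2.27% lower). Sema3e rose: it ranged from 77.2 to 173 CPM (median 128) in light and from 54.3 to 124 (median 81.1) in dark libraries. The ranges overlapped, and the log2 difference was 0.60 ± 0.15 (edgeR adjusted p = 0.00942). It passed in each of the 8 alternatives and with any 1 library left out, with the highest adjusted p at 0.0436. The summed astrocyte markers had a median of 633 CPM (397 to 954) in light and 470 (377 to 668) in dark libraries, with 1 of 7 called and all 7 positive. The summed excitatory markers had a median of 1164 (1061 to 1352) against 1373 (1003 to 1500), and 2 of 11 were called higher and 1 lower. The part of these markers was not tested. Overlapping genes Gm43519 and Gm4128 reached 11.3% and 10.0% of the Sema3e level, and the reads of overlapping genes cannot be told apart here.

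Epha3 and Robo2 fell. Epha3 ranged from 25.7 to 111 CPM (median 71.0) in light and from 70.9 to 158 (median 121) in dark (-0.73 ± 0.20, edgeR adjusted p = 0.0223), and Robo2 from 229 to 524 (median 426) and from 340 to 817 (median 497; -0.44 ± 0.13, edgeR adjusted p = 0.0306). Both sets of ranges overlapped. Both calls were lost without the E1 dark replicates 1 and 2 (-0.70 and -0.36, edgeR adjusted p = 0.190 and 0.324) and with the length index as a covariate (-0.58 and -0.17, edgeR adjusted p = 0.271 and 0.630). The length index had medians of 2.29 in light and 2.69 in dark total libraries.

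In total nuclei of the Cre animals 1 of 49 members passed, beside 1.49% of all genes (edgeR; 1.09% higher, 0.396% lower). Sema3a rose: it ranged from 27.7 to 81.0 CPM (median 49.4) in light and from 4.21 to 44.9 (median 28.1) in dark libraries, which overlapped (0.83 ± 0.22, edgeR adjusted p = 0.0308). It passed in the 8 alternatives, but in 7 of 24 fits with 1 library left out the adjusted p was above 0.05, up to 0.0805 without E123 Cre dark replicate 2. The summed oligodendrocyte-lineage level had medians of 1902 CPM in light and 1318 in dark, with 8 of 10 markers positive, and its part was not tested. With dCre the Sema3a difference in total nuclei was 0.34 ± 0.22 (edgeR adjusted p = 0.391), and with Cre the Sema3e difference was 0.35 ± 0.15 (edgeR adjusted p = 0.292). Whether the responses of total nuclei differ between the viruses was not tested.

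The remaining members named in each light comparison did not pass in total nuclei. With dCre and with Cre, the differences were -0.35 ± 0.16 and -0.13 ± 0.16 for Slit3, -0.37 ± 0.19 and -0.23 ± 0.19 for Slit2, and 0.14 ± 0.19 and 0.17 ± 0.19 for Slit1. They were -0.26 ± 0.18 and -0.40 ± 0.18 for Robo1, -0.01 ± 0.11 and 0.11 ± 0.11 for Epha4, and -0.17 ± 0.14 and 0.16 ± 0.14 for Efna5. Plxna4 differed by -0.21 ± 0.16 and 0.11 ± 0.16, and Robo2 with Cre by -0.27 ± 0.13 (edgeR adjusted p = 0.391). The dCre light response in VIP nuclei minus that in total nuclei passed for 0 of 49 members (edgeR; 3 at an unadjusted p under 0.05; DESeq2 0 and 3) and 0% of all genes. For Sema3e that difference was -0.46 ± 0.27 and for Epha3 0.72 ± 0.30 (edgeR adjusted p = 0.908 and 0.663).

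**Figure D3:**
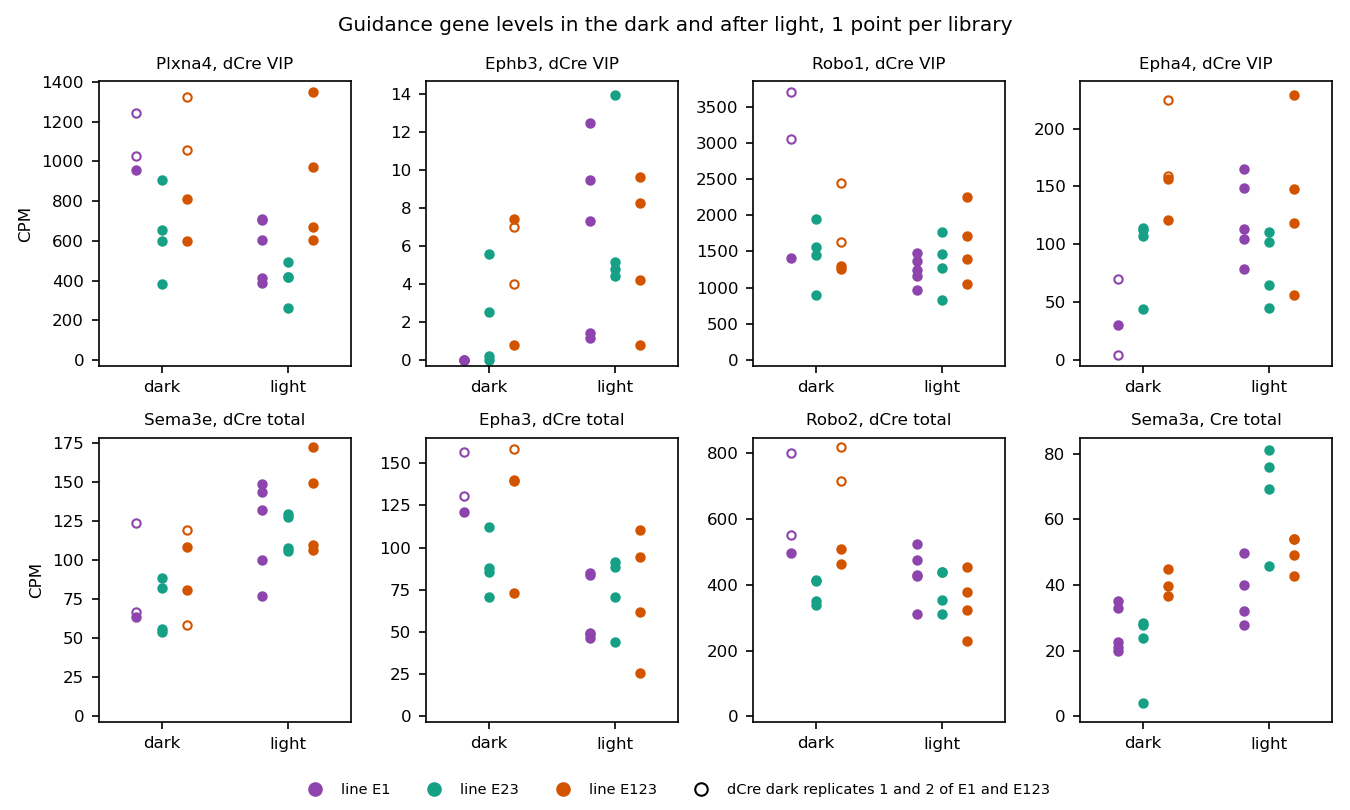
CPM (y axis) of 8 members in the dark and after light, each in the fraction and virus named above it; each point is 1 library, coloured by line, and open points are replicates 1 and 2 of E1 and E123 dCre dark. Sema3e medians in dCre total nuclei are 81.1 in the dark and 128 after light, and the dark E1 libraries hold no Ephb3 count in dCre VIP nuclei.

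Of 75 other guidance genes tested in dCre VIP nuclei, 5 rose with light (Rac1, Rnd3, Nrp1, Pak1 and Cfl1) and 7 fell (Srgap3, Vav2, Srgap2, Fyn, Farp1, Mical3 and Unc5c), beside 3.97% higher and 2.3% lower over all genes. Among other protein-coding genes of at least 100 kb, 28 of 2341 rose and 221 fell. Nrp1 stood at 114 ± 42.1 CPM in light (SD, n = 13) and 75.4 ± 34.6 in dark (n = 11), a log2 difference of 0.81 ± 0.23 (edgeR adjusted p = 0.0274). Without the E1 dark replicates 1 and 2 none of these 12 passed.

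In dCre total nuclei 6 of the 75 rose, among them Rac1, Cap1, Pak1, Chn1 and Rnd3, and 5 fell (Unc5d, Grb10, Srgap3, Lrig1 and Sos2), beside 3.42% higher and 2.27% lower over all genes, and 32 higher and 222 lower of 2383 other protein-coding genes of at least 100 kb. Rac1, a small GTPase of the cytoskeleton, stood at 87.3 ± 17.7 against 44.3 ± 31.5 CPM (1.14 ± 0.21, edgeR adjusted p = 0.000357), and it was called in each of the 8 alternatives. In Cre total nuclei Mical2 rose and Dpysl3 and Ntng1 fell, and the last pair was called in every alternative.

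The third question was whether these genes differed between VIP nuclei given Cre and dCre, in animals whose floxed alleles are named for Igf1. Removal of the floxed segments was not measured, and the comparison is Cre against dCre in VIP nuclei of each line with light and dark averaged. These comparisons use the same dCre libraries as the light comparisons above. In line E1, 1 of 49 members passed, and it was lower, beside 1.57% of all genes (edgeR; 0.928% higher, 0.646% lower). Slit1 ranged from 8.78 to 25.9 CPM (median 16.5, n = 9) with Cre and from 10.1 to 112 (median 34.3, n = 8) with dCre. The ranges overlapped, and the log2 difference was -1.33 ± 0.31 (edgeR adjusted p = 0.0299). Among the dCre libraries the mean was 69.6 ± 40.6 CPM in the dark and 29.3 ± 12.4 after light (SD, n = 3 and 5).

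Several settings ended the Slit1 call. Without the E1 dark replicates 1 and 2 the difference was -1.33 with an edgeR adjusted p of 0.423, and without replicate 1 alone it was -1.11 (edgeR adjusted p = 0.124). With the length index as a covariate it was -1.41 (edgeR adjusted p = 0.410), and with total-count scaling -1.12 (edgeR adjusted p = 0.0513). Under that scaling the median of all genes moved from 0.06 to 0.23 and the higher share of all calls from 59.0% to 87.1%. In line E1, 39 of the 49 members had a negative difference, with a members' median of -0.45 against 0.06 over all genes, of which 9659 of 20585 were negative. Other protein-coding genes of at least 100 kb had a median of -0.37 with 1936 of 2341 negative, and the 25 members of that length -0.51. With the length index as a covariate the members' median was 0.13. Without the E1 dark replicates 1 and 2 it was -0.16, with 29 of 49 negative. The median length index in this comparison was 2.28 with Cre and 2.70 with dCre. Summed marker levels differed as well, at medians of 10681 and 8140 CPM for VIP, 168 and 300 for excitatory and 188 and 122 for oligodendrocyte-lineage markers. The VIP list holds Igf1, the gene the alleles are named for, which was its 1 marker called lower, and Crh was called higher. Of the other 2 lists, 1 excitatory marker lower and 1 oligodendrocyte-lineage marker higher (9 of 10 positive), and their part was not tested. Of the other guidance genes Fyn, Srgap3 and Kalrn were lower with Cre in line E1, and none of these was called without the E1 dark replicates 1 and 2.

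In line E23, 0 members passed (edgeR; 3 at an unadjusted p under 0.05; DESeq2 0 and 3), beside 0% of all genes, and the members' median difference was 0.02, as was that of all genes. In line E123, 0 members passed with edgeR (6 at an unadjusted p under 0.05) and 1 with DESeq2 (7 unadjusted), beside 0.0389% of all genes. Plxna2, a receptor for Sema6a and for class 3 cues, came nearest in line E123: it ranged from 125 to 294 CPM (median 242, n = 7) with Cre and from 262 to 518 (median 395, n = 8) with dCre. The ranges overlapped slightly, and the log2 difference was -0.82 ± 0.21 (edgeR adjusted p = 0.0915). The members' median difference in line E123 was -0.34, against 0.00 over all genes and -0.36 over other protein-coding genes of at least 100 kb, and with the length index as a covariate it was -0.13. Without replicates 1 and 2 of E1 and E123 dCre dark, the Plxna2 difference was -0.61 (edgeR adjusted p = 0.624) and the members' median -0.24. Markers differed here too: the summed VIP markers had a median of 6152 CPM (2664 to 8284) with Cre and 3499 (1802 to 6007) with dCre, the astrocyte markers 449 (339 to 2766) and 377 (242 to 1021), and the excitatory markers 463 (265 to 559) and 697 (357 to 1057). Of all marker lists, Igf1 was called lower and the GABAergic marker Gad1 higher, and the median length index was 2.73 and 3.37. The part of the markers was not tested.

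**Figure D4:**
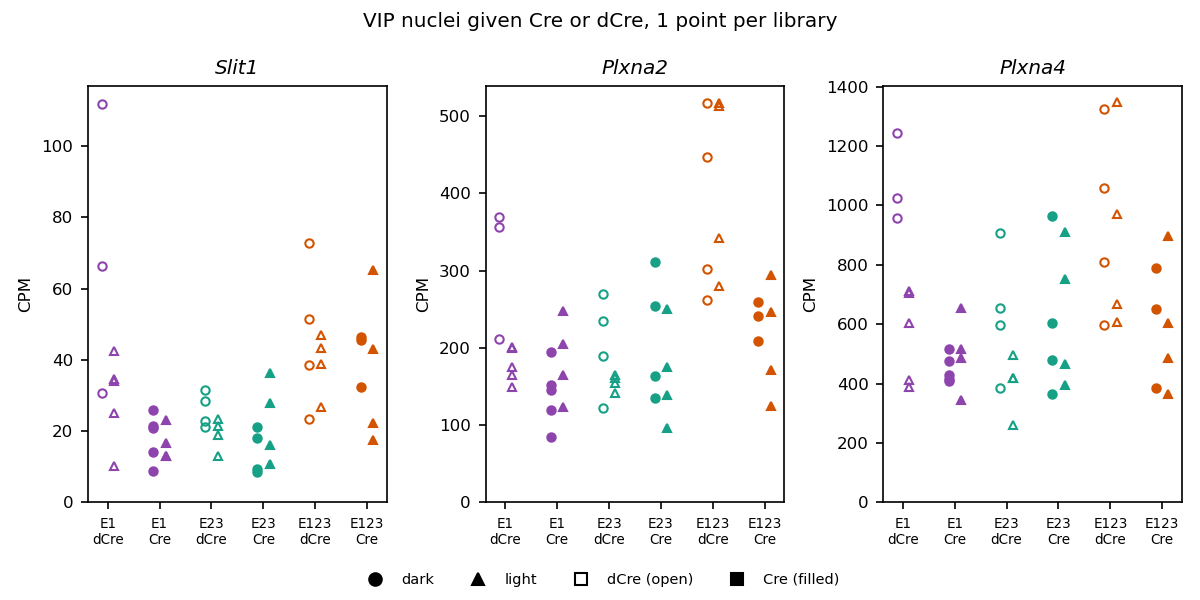
CPM in each VIP library given dCre or Cre, in lines E1, E23 and E123, for Slit1, Plxna2 and Plxna4 (y axis); each point is 1 library, open for dCre and filled for Cre, a circle in the dark and a triangle after light. In line E1 the Slit1 libraries with Cre lie at 25.9 CPM or below, and 1 dCre library reaches 112.

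The length index moved with many members across libraries. Over the 48 VIP libraries, the 25 members that span at least 100 kb had a median Pearson correlation of 0.538 with it (-0.210 to 0.849), and the 24 shorter ones 0.210 (-0.784 to 0.485). Over the 48 total libraries the medians were 0.464 and 0.122. Plxna2 followed the index most closely in VIP nuclei, with r = 0.849 and rho = 0.882, and r = 0.865 without the 2 libraries farthest from the median index. Plxna4 had r = 0.835 and rho = 0.853 (0.824 without those libraries), and Robo1 0.684 and 0.588 (0.559). Efna3, a short gene, ran the other way at r = -0.784 and rho = -0.672 (-0.681). Sema3c, by contrast, had r = -0.210 and rho = -0.327 (-0.183). Both measures come from the same library, so these are descriptions and carry no test.

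**Figure D5:**
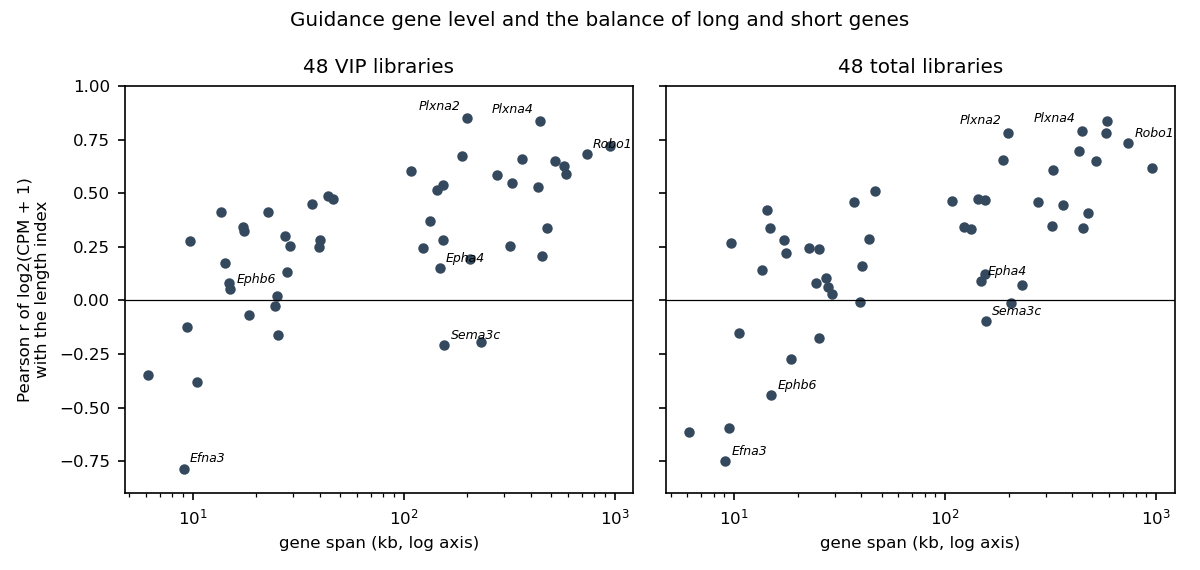
Pearson correlation of each member's log2 level with the length index over the 48 VIP (left) and 48 total (right) libraries, against the span of the gene in kb (log axis); each point is 1 member. Plxna2 and Plxna4 lie at 0.849 and 0.835 in VIP nuclei, and Efna3 at -0.784.

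Within the E1 dCre dark group the members did not move as one. Robo1 stood at 3702, 3054 and 1411 CPM in VIP replicates 1, 2 and 3, beside 971 to 1476 in the E1 dCre light libraries. Epha4 stood at 70.4, 4.42 and 30.6 CPM in the same replicates, beside 79.0 to 165 in the light libraries. Both genes span more than 100 kb, and in replicates 1 and 2 Robo1 lay above the light libraries and Epha4 below them. Light against dark was also fitted in line E1 alone, with 5 and 3 libraries, the dark ones including replicates 1 and 2. There 3 of 49 members passed, 2 higher and 1 lower, beside 4.18% of all genes (edgeR). They were 1 EphA receptor and Ephb3, higher in light, and 1 Robo receptor, lower. In lines E23 and E123 alone 0 of 49 passed, beside 0.0486% and 0.00972% of all genes. Replicates 1 and 2 of the E1 dCre dark group were labelled female and replicate 3 male. In that group the sex label and the high length index cannot be told apart, and without the pair it held no female library. Whether replicates 1 and 2 differ from replicate 3 was not tested.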

How the data were processed

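Nuclear RNA was sequenced from pools of 50 to 100 sorted nuclei, with 17 PCR cycles per the labels' protocols. The deposited table holds raw read counts per gene, made by the authors. The submitters' processing notes name cutadapt 1.18, STAR 2.5.3a, HOMER 4.9.1 and mm10; the annotation release and the use of strand or introns are not given in the sources used here. Of 55335 gene identifiers, 55154 matched GENCODE M21, and the others held 0.0225% of counts. All 96 libraries were used.

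Genes were tested with edgeR 4.0.16 (R 4.3.3): TMM scaling, the default filter on low counts, robust quasi-likelihood F tests, 1 coefficient per group, and Benjamini-Hochberg adjustment over all genes tested, with a threshold of 0.05. VIP nuclei, total nuclei and all 96 libraries were fitted separately, and the 3 lines were averaged in the light comparisons. Levels are CPM on TMM library sizes of the fit of all 96 libraries, so they can differ slightly in ratio from a fitted difference. The SE is the fitted log2 difference divided by the square root of F. PCR copies could not be told from separate molecules, so the limit for 3 counts covers counting error only. The script was tested on simulated counts.

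Alternatives were DESeq2 1.42.0, total-count scaling, no filter on low counts, the length index or the sex label as a covariate, a replicate block, and the omission of libraries. In the fit of all 96 libraries the block joined the VIP and total library of the same condition and number. In the VIP and total fits it was the replicate number alone, shared by libraries of different groups, and not a pairing of animals. In fits that left out a library the trended dispersions of the full fit were kept. Where 2 of the 3 E1 dCre dark libraries were left out, the remaining 1 was assumed to vary like the other groups.

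The text names up to 4 members per subfamily and direction with the smallest p among those called, Slit1, Slit2, Slit3, Robo1, Robo2, Epha4, Efna5, Sema3a and Plxna4 in each fraction and light comparison, the 5 members with the highest level per exon length in each fraction, and up to 6 other guidance genes per list direction, besides Nrp1 and Nrp2. Members near a threshold, Sema7a, Sema6d, Epha7 and Plxna2, were named after their values were seen. The members, gene lists, comparisons and left-out libraries were chosen with earlier results of these data known. The results of 1 gene of the signalling list under light are not reported here. Promoters are from RefSeq (GRCm38.p6).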

Additional observations from a re-analysis of the deposited data

Results flagged for a closer look

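Ephb3 in E23 dCre VIP nuclei after light stood at 13.94 CPM in replicate 3 and at 4.42 to 5.14 in the other 3 libraries. The gap to the nearest library was 0.924 of the group's whole range, above the critical value of Dixon's test for 4 libraries. Such a test marks about 1 in 20 groups by chance, and 33 groups were checked.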

How the results depend on the processing

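The count of members called between VIP and total nuclei was 36 to 40 under the 8 alternatives and 37 to 40 with 1 replicate left out. In dCre VIP nuclei the light count of 2 became 1 with the replicate block, the sex label or total-count scaling, and 0 with the length index or without the libraries of high index, whether the E1 pair or the E1 and E123 pairs. In dCre total nuclei the count of 3 became 6 with no filter, 5 with DESeq2, and 1 with the length index or without either set of those libraries. In Cre nuclei, no filter gave 1 in place of 0 (VIP) and 2 in place of 1 (total). For Cre against dCre in line E1, the count of 1 became 6 with no filter, 4 with DESeq2, 2 with the replicate block or the sex label, and 0 with the length index, total-count scaling or without either set of libraries. In line E23 no filter gave 1 in place of 0. In line E123, 0 became 3 with no filter and 1 with DESeq2 or the replicate block. For the light response with Cre minus with dCre, no filter gave 1 in place of 0. The cause of these moves was not tested. The counts are of members alone, without the shares of all genes, and are not read as a result about the members.

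With 1 library left out, the counts ran from 0 to 4 for light in dCre VIP nuclei, 0 to 0 in Cre VIP nuclei, 1 to 6 in dCre total nuclei and 0 to 2 in Cre total nuclei. They ran from 0 to 7, 0 to 0 and 0 to 1 for Cre in lines E1, E23 and E123, from 0 to 1 for the difference between viruses and 0 to 0 for that between fractions. The number of all genes called moved as well. For light it was 646 to 2522 (dCre VIP), 36 to 90 (Cre VIP), 604 to 2491 (dCre total) and 191 to 343 (Cre total). For Cre in the 3 lines it was 10 to 2460, 0 to 0 and 0 to 340. For the difference between viruses it was 0 to 332, and for that between fractions 0 to 19. The highest member counts in dCre nuclei and in line E1 (4, 6 and 7) came without E1 dCre dark replicate 3, whose length index was like that of other groups. Among the named genes, the Cfl1 difference in dCre VIP nuclei was -0.00877 in place of 0.93 with the length index as a covariate. That difference was close to 0 with its sign changed, and the cause was not tested. The members called and the genes followed by name were compared with the main fit. This was done under each alternative and with the left-out replicate that gave the largest adjusted p. A call was lost in 150 of these results and gained in 2. In 1008 the side of the threshold held, with the direction of any called value, while a value not called could change sign.

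Replicate numbers were not taken as pairs, because VIP and total libraries of the same number and condition had a correlation over 0.1 in their deviations from group means in 12 of 48 pairs only (median 0.0543). As a hint from the data and not the design, 31 of 48 correlated best with their own number among the 3 to 5 libraries of the condition. The sex labels matched in all 48. A shared animal is therefore possible, and the main test between the fractions treated the 96 libraries as separate. With the replicate block, the members called between the fractions numbered 39, 13 higher and 26 lower. The biological coefficient of variation of 0.815 in VIP and 0.679 in total nuclei limits what can be called in single genes, and members near 1 CPM, such as Sema3f, Efna1 and Epha1, rest on few reads.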
